A study of Mus musculus with 12 samples.

Results

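The genes described here encode nucleoporins and nuclear transport receptors of the mouse. They were chosen by name, as genes whose symbol starts with Nup and a digit, Xpo and a digit, Ipo and a digit, Kpna, Kpnb, or Tnpo and a digit. The deposited files named 37 of them as the owner of a start site, of 43 protein-coding mouse genes in RefSeq with such a symbol and of 26219 genes with a curated RefSeq transcript in all. Because a gene enters the files only when a peak lies near it, shares below are given of all 43 genes, of which 21 are nucleoporins and 22 are transport receptors.

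The nuclear pore complex is the channel through which proteins and RNA pass between nucleus and cytoplasm. Its scaffold is built of a Y-shaped coat complex and an inner ring, and its passage is filled with nucleoporins rich in phenylalanine and glycine repeats that form the barrier. Importins and transportins bring cargo into the nucleus and exportins take it out, with the small GTPase Ran setting the direction of each. Several pore genes, NUP98 and NUP214 among them, are partners in fusion genes of human myeloid leukaemia.

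The study asked which genes are targets of 2 histone demethylases, Jmjd2a (Kdm4a) and Jmjd2c (Kdm4c), which remove methyl groups from lysines 9 and 36 of histone H3. Chromatin immunoprecipitation with sequencing (ChIP-seq) was done in leukaemic granulocyte-macrophage progenitors (L-GMP) transformed by the MLL-AF9 fusion, in lines taken from mice with leukaemia; the sources used here do not give how many lines were used. All cells were of the C57BL/6 background and carried Jmjd2a/b/cf/f;Rosa26::CreERT2, that is, floxed alleles of Jmjd2a, Jmjd2b and Jmjd2c with a tamoxifen-activated Cre at Rosa26, and all were grown in 20% fetal bovine serum with 10 ng/ml IL-3. Of 12 libraries, those of Jmjd2a and of Jmjd2c numbered 1 each from cells kept for 96 h in 500 nM 4-hydroxytamoxifen (OHT) and 1 each from untreated cells, and those of trimethylated lysine 9 and of trimethylated lysine 36 numbered 2 each per condition. The untreated cells therefore carry the floxed alleles and the Cre as well.

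The measurements used were the positions of 8977 Jmjd2a peaks and 10521 Jmjd2c peaks, and a list of 6940 windows of 1 kb to each side of start sites that the authors called bound by both, all on mm10. The files hold no peak height, score or value per library, so depth is unknown, OHT and untreated cells could not be compared, and no result below has a replicate error or a test. Peak positions also give no way to check the cell type against its markers. The sources used here do not give which libraries the peaks came from. A gene was called occupied when a peak lay within 1000 bp of one of its start sites named in the files. Peak positions are also given relative to the start site, in bp, with downstream counted as positive.

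Jmjd2c lay at most of these genes and Jmjd2a at a smaller share of them, and Jmjd2a lay at no gene of the group without Jmjd2c. Jmjd2a occupied 24 of 43 genes, or 55.8% (exact 95% binomial interval 39.9% to 70.9%), against 27.4% of all curated genes and 32.3% of protein-coding genes. Jmjd2c occupied 36 of 43 genes, or 83.7% (69.3% to 93.2%), against 37.9% of all curated genes and 44.6% of protein-coding genes. Both proteins lay at 24 of 43 genes, or 55.8%, against 24.5% of all curated genes and 29.0% of protein-coding genes. Jmjd2c alone lay at 12 of 43 genes, against 13.4% of all curated and 15.7% of protein-coding genes. Jmjd2a alone lay at 0, against 2.88% and 3.35%, so the 0 is near the background. Neither protein lay at 7, against 59.2% and 52.0%, among them Nup62, whose start is not named in the files and lies near a Jmjd2a peak. The shares with Jmjd2a, with Jmjd2c and with both were thus higher than those of all genes. The intervals cover counting error only, and the genes were taken by name and not drawn at random. Among genes that carried Jmjd2c, the share with Jmjd2a as well was close to the background, at 24 of 36 nuclear pore and transport genes (66.7%) and 6090 of 9386 protein-coding genes (64.9%).

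Jmjd2a accompanied Jmjd2c at more of the nucleoporin genes than of the transport receptor genes. Nucleoporin genes carried Jmjd2a in 15 of 21 cases (71.4%, 47.8% to 88.7%) and Jmjd2c in 17 of 21 (81.0%, 58.1% to 94.6%). Transport receptor genes carried Jmjd2a in 9 of 22 cases (40.9%, 20.7% to 63.6%) and Jmjd2c in 19 of 22 (86.4%, 65.1% to 97.1%). Over all protein-coding genes, these shares were 32.3% and 44.6%. The Jmjd2a interval of the transport receptors includes 32.3%, so their share cannot be told from the background, while that of the nucleoporins lies above it. Of genes with Jmjd2c, 15 of 17 nucleoporins (88.2%) and 9 of 19 transport receptors (47.4%) also had Jmjd2a, against 64.9% of protein-coding genes. The intervals of the Jmjd2a shares of the 2 families overlap, and the difference between families was not tested. The Jmjd2a peaks of Nup188, Nup88 and Nup98, and among the transport receptors that of Xpo5, lay nearer the start of a neighbouring gene. Giving these peaks to the neighbours would narrow the difference between the families.

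**Figure D1:**
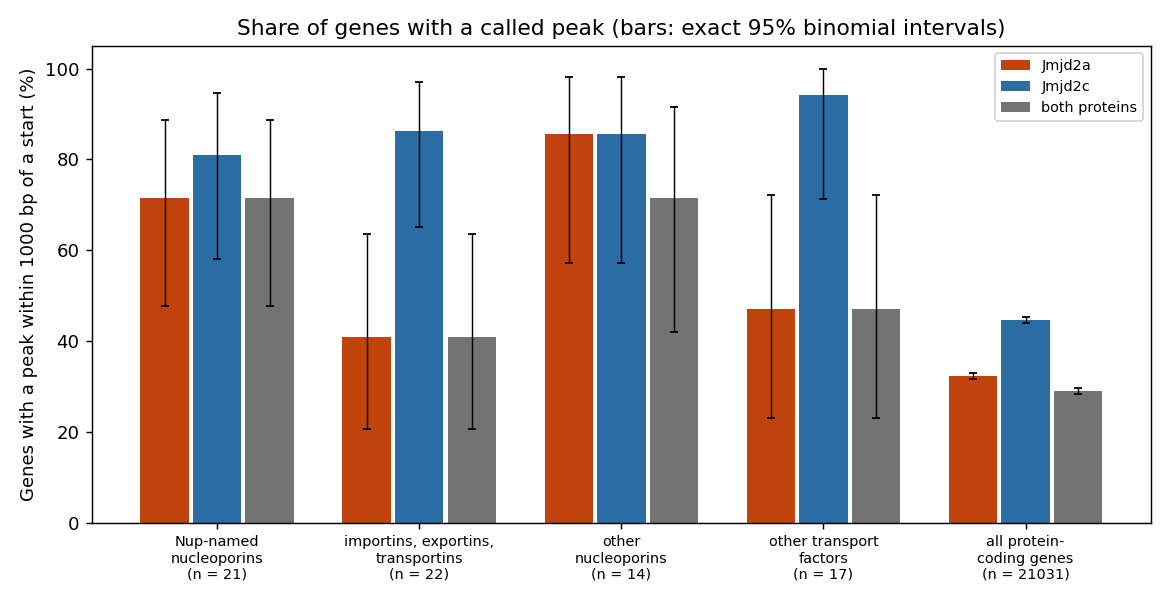
Share of genes with a called peak within 1000 bp of a start site (y axis, %), for 21 Nup-named nucleoporins, 22 importins, exportins and transportins, 14 other nucleoporins, 17 other transport factors and 21031 protein-coding genes. The other nucleoporins include the pore-associated factors Gle1, Ddx19a and Ddx19b. Bars show Jmjd2a, Jmjd2c and both proteins with exact 95% binomial intervals; in the 4 groups of pore and transport genes Jmjd2a spans 40.9% to 85.7% and Jmjd2c 81.0% to 94.1%, against 32.3% and 44.6% of protein-coding genes.

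Promoter sequences are shown here for the genes at the extremes of occupancy, so that the DNA before the start can be compared between wide, narrow and absent peaks. Each is the 250 bases before the RefSeq start site on GRCm38.p6, printed 5′ to 3′ on the strand of the gene. Capitals mark 7 short motifs searched on both strands, namely GGGCGG (the GC box of Sp factors), CCAAT (the box bound by NF-Y), CCGGAAG (ETS factors), GCATGCGC (NRF1), TATAAA (the TATA box), AAGATGGC (YY1) and TGACGTCA (the cAMP response element). Ipo8, at chr6:148831468-148831717 on the minus strand, had both proteins and the widest Jmjd2a peak, and Nup50, at chr15:84923178-84923427 on the plus strand, had both and the narrowest. Ipo13, at chr4:117915000-117915249, and Nup54, at chr5:92435200-92435449, both on the minus strand, had the widest Jmjd2c peaks among genes with Jmjd2c alone that have an entry in the promoter table. Ipo4, at chr14:55635685-55635934, and Kpna7, at chr5:145009637-145009886, both on the minus strand, had neither protein and come first in the alphabet among such genes.
Ipo8: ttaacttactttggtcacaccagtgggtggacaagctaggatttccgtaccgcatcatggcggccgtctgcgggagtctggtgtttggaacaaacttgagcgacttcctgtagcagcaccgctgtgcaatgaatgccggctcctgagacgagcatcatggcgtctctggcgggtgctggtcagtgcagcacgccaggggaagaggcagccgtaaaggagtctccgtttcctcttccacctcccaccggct
Nup50: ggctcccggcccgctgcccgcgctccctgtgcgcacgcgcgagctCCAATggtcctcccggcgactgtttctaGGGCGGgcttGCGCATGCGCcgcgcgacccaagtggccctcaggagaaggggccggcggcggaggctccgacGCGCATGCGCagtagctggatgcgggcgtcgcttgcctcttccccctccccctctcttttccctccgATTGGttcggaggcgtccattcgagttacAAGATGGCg
Ipo13: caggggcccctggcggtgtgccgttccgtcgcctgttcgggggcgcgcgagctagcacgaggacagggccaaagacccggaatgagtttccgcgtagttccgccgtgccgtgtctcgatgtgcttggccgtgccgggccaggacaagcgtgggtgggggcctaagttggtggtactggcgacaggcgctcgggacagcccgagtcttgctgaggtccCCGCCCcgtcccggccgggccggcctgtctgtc
Nup54: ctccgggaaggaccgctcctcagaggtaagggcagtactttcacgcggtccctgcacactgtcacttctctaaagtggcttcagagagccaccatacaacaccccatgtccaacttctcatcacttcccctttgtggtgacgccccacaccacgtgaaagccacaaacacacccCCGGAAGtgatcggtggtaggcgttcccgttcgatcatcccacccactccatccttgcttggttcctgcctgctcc
Ipo4: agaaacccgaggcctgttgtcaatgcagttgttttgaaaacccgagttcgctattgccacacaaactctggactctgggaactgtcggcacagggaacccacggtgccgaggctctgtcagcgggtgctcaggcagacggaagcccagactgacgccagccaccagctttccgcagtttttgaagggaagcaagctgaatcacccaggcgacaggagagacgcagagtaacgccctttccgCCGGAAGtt
Kpna7: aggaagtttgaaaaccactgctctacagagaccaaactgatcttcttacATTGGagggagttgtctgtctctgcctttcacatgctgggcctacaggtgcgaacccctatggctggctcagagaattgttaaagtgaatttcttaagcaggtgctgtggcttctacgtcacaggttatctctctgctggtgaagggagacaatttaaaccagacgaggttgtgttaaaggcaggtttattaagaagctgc

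The Ipo8 stretch held none of the 7 motifs, with 58.0% G and C and 15 CpG pairs, and lay wholly under both peaks of the gene. The Nup50 stretch lay under the Jmjd2c peak alone, since its Jmjd2a peak ended 397 bp upstream of the start, and it held 4 of the motifs, including GCATGCGC on both strands at overlapping positions, with 69.6% G and C and 31 CpG pairs. Ipo13 had 70.4% G and C and 28 CpG pairs, and Nup54 had 57.2% and 11. Ipo4 had 57.2% and 15, and Kpna7 stood lowest with 46.0% and 3. Of the genes with both proteins shown here, the one with the narrowest Jmjd2a peak thus held more of these motifs than the one with the widest.

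Over the promoter table, which adds 50 bases after each start to the 250 before it, 34 of the 43 genes had an entry, with 41 promoters in all. Kpna1, Kpna3, Kpna6, Nup35, Nup43, Nup85, Nup210l, Xpo4 and Xpo7 had none. The promoters of the nuclear pore and transport genes had a median of 64.3% G and C (37.7% to 80.7%), against 56.3% for protein-coding and 52.7% for all 32851 promoters. Their median number of CpG pairs was 28, against 13 and 7. Within the group, the median number of CpG pairs was 28 in promoters of genes with both proteins, 28 with Jmjd2c alone and 19 with neither. Split by Jmjd2a, the median was 28 in the 24 promoters of genes with it and 24 in the 17 promoters of genes without it. A gene with several promoters counts once for each, including neighbouring starts such as those of Nup37, Nup98 and Ipo9. Ipo5 (0 CpG pairs, 37.7% G and C), Nup93 (3 CpG pairs) and Tnpo1 (17 CpG pairs) each include a promoter away from the start where the peaks lay.

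GGGCGG was present in 63.4% of the 41 promoters, against 46.2% of protein-coding and 35.7% of all promoters. CCAAT was present in 56.1%, against 38.2% and 37.4%. CCGGAAG was present in 17.1%, against 11.6% and 8.86%, and TATAAA in 9.76%, against 12.6% and 13.6%. None of the 7 motifs contains another. AAGATGGC was found in 4 of 41 promoters (9.76%, against 3.05% and 2.75%), those of Nup188, Nup205, Nup50 and Nup88, and all 4 genes had both proteins. GCATGCGC was also found in 4 (9.76%, against 3.52% and 2.71%), of Nup107, Nup50 and Xpo5, with both proteins, and of Nup62, with neither by the call used. TGACGTCA was found in 2 promoters (4.88%, against 2.23% and 1.79%), of Nup133 and Nup214. These are matches of letters in a fixed window, with counts too small to read an order from.

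The Y complex coats the outer rings of the pore, and 5 of its 6 genes with these names had both proteins over the start site. The Nup107 gene had a Jmjd2a peak of 441 bp at chr10:117792361-117792801, from -96 to +344 bp, and a Jmjd2c peak of 486 bp at chr10:117792258-117792743, from -38 to +447 bp. Nup133 carried a Jmjd2a peak of 391 bp at chr8:123948877-123949267, from -2 to +388 bp, and a Jmjd2c peak of 1858 bp at chr8:123948603-123950460, from -1195 to +662 bp. At Nup107 the Jmjd2c peak was the narrowest of the group, while at Nup133 a narrow Jmjd2a peak began at the start site inside a Jmjd2c peak that reached well upstream. At Nup43, the Jmjd2a peak spanned 582 bp at chr10:7667478-7668059, from -26 to +555 bp, and the Jmjd2c peak 1047 bp at chr10:7667019-7668065, from -485 to +561 bp. The Nup85 gene had a Jmjd2a peak of 1319 bp at chr11:115563502-115564820, from -942 to +376 bp, and a Jmjd2c peak of 1412 bp at chr11:115563571-115564982, from -873 to +538 bp. Nup37 carried a Jmjd2a peak of 1380 bp at chr10:88146425-88147804, from -567 to +812 bp, and a Jmjd2c peak of 1275 bp at chr10:88146352-88147626, from -640 to +634 bp. At Nup37 the Jmjd2a peak was the wider of the pair, as it was at 1 further gene, Ipo8.

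Nup160, the remaining Y complex gene, was not occupied by the distance used, because its peaks lay inside the gene. The Jmjd2a peak of 865 bp, at chr2:90679127-90679991, began 1912 bp downstream of the named start, and the Jmjd2c peak of 1501 bp, at chr2:90678651-90680151, began 1436 bp downstream of it. They overlapped over 865 bp, the whole of the Jmjd2a peak, and the files list exon, intron, coding and 5′ UTR features under both. With a distance of 5000 bp in place of 1000 bp, Nup160 was the gene that brought the counts to 25 for Jmjd2a, 37 for Jmjd2c and 25 for both, against 28.8%, 38.7% and 25.6% of all curated genes. The largest distance that counted as occupied was 442 bp, for Jmjd2a at Nup88.

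All 5 inner ring genes had both proteins, but the Jmjd2a peaks took 3 different placements. Nup93, Nup205 and Nup35, the first of which links the ring to the central channel, had Jmjd2a across the start site. At Nup93, the Jmjd2a peak spanned 1111 bp at chr8:94214102-94215212, from -499 to +611 bp, and the Jmjd2c peak 1223 bp at chr8:94214102-94215324, from -499 to +723 bp. The Nup205 gene had a Jmjd2a peak of 816 bp at chr6:35177333-35178148, from -283 to +532 bp, and a Jmjd2c peak of 1122 bp at chr6:35177256-35178377, from -360 to +761 bp. Nup35 carried a Jmjd2a peak of 943 bp at chr2:80638552-80639494, from -260 to +682 bp, and a Jmjd2c peak of 974 bp at chr2:80638528-80639501, from -284 to +689 bp. In these genes the Jmjd2a peak lay wholly inside the Jmjd2c peak and filled at least 72.7% of it. At Nup188, the Jmjd2a peak spanned 481 bp at chr2:30285867-30286347, from -566 to -86 bp, and the Jmjd2c peak 1738 bp at chr2:30285452-30287189, from -981 to +756 bp. Nup155 had a Jmjd2a peak of 811 bp at chr15:8108277-8109087, from -1036 to -226 bp, and another of 367 bp at chr15:8110202-8110568, from +889 to +1255 bp. Its Jmjd2c peak spanned 1582 bp at chr15:8108720-8110301, from -593 to +988 bp. At Nup188 the Jmjd2a peak stopped before the start site, and at Nup155 a pair of Jmjd2a peaks flanked it, the downstream one sharing 100 bp with the Jmjd2c peak.

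The cytoplasmic side, where messenger RNA leaves the pore, was represented by the partners Nup214 and Nup88, and both had Jmjd2a upstream of the start only. Nup214 carried a Jmjd2a peak of 347 bp at chr2:31973827-31974173, from -623 to -277 bp, and a Jmjd2c peak of 1484 bp at chr2:31973795-31975278, from -655 to +828 bp. At Nup88, the Jmjd2a peak spanned 934 bp at chr11:70970415-70971348, from -1375 to -442 bp, and the Jmjd2c peak 2200 bp at chr11:70969044-70971243, from -1270 to +929 bp. Nup98, a repeat nucleoporin found on both faces of the pore, showed the same placement. The Nup98 gene had a Jmjd2a peak of 558 bp at chr7:102210569-102211126, from -960 to -403 bp, and a Jmjd2c peak of 1916 bp at chr7:102209436-102211351, from -1185 to +730 bp. The other channel nucleoporin with a peak, Nup54, had Jmjd2c alone. Nup54 carried a Jmjd2c peak of 1807 bp at chr5:92434077-92435883, from -684 to +1122 bp.

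Nup62, the partner of Nup54 in the central channel, was counted as having neither protein because the files name no start site for it. Its RefSeq start lay 487 bp from a Jmjd2a peak of 465 bp, at chr7:44815137-44815601, whose nearest named start was that of Atf5, and 32462 bp from the nearest Jmjd2c peak. By the start sites of the promoter table, Nup62 would be the single gene of the group with Jmjd2a and without Jmjd2c.

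Of the nuclear basket genes, Nup50, which helps release importins from their cargo, had both proteins and Nup153 had Jmjd2c alone. At Nup50, the Jmjd2a peak spanned 255 bp at chr15:84922777-84923031, from -651 to -397 bp, and the Jmjd2c peak 2411 bp at chr15:84922097-84924507, from -1331 to +1079 bp. The Nup153 gene had a Jmjd2c peak of 964 bp at chr13:46727113-46728076, from -227 to +736 bp. The Jmjd2a peak at Nup50 was the narrowest of the group and equalled 10.6% of the width of the Jmjd2c peak around it. Nup210, a membrane-spanning nucleoporin, had both proteins across the start. Nup210 carried a Jmjd2a peak of 960 bp at chr6:91116167-91117126, from -300 to +659 bp, and a Jmjd2c peak of 1476 bp at chr6:91115951-91117426, from -600 to +875 bp. Nup210 also was the nearest start for an overlapping pair of peaks 127702 bp (Jmjd2a) and 127257 bp (Jmjd2c) downstream of its start, beyond the end of the gene, and for an intronic Jmjd2a peak 5874 bp downstream. The Nup-named genes Nup62cl and Nup210l, which are not part of the classical list of pore subunits, had neither protein. Nup62cl lay 377567 bp from the nearest Jmjd2a peak and 64017 bp from the nearest Jmjd2c peak. Nup210l has no start site in the tables used, and one end of its span lay 1391 bp from a Jmjd2a peak and 892 bp from a Jmjd2c peak that the files give to Rps27, Rps27rt and Rab13.

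**Figure D2:**
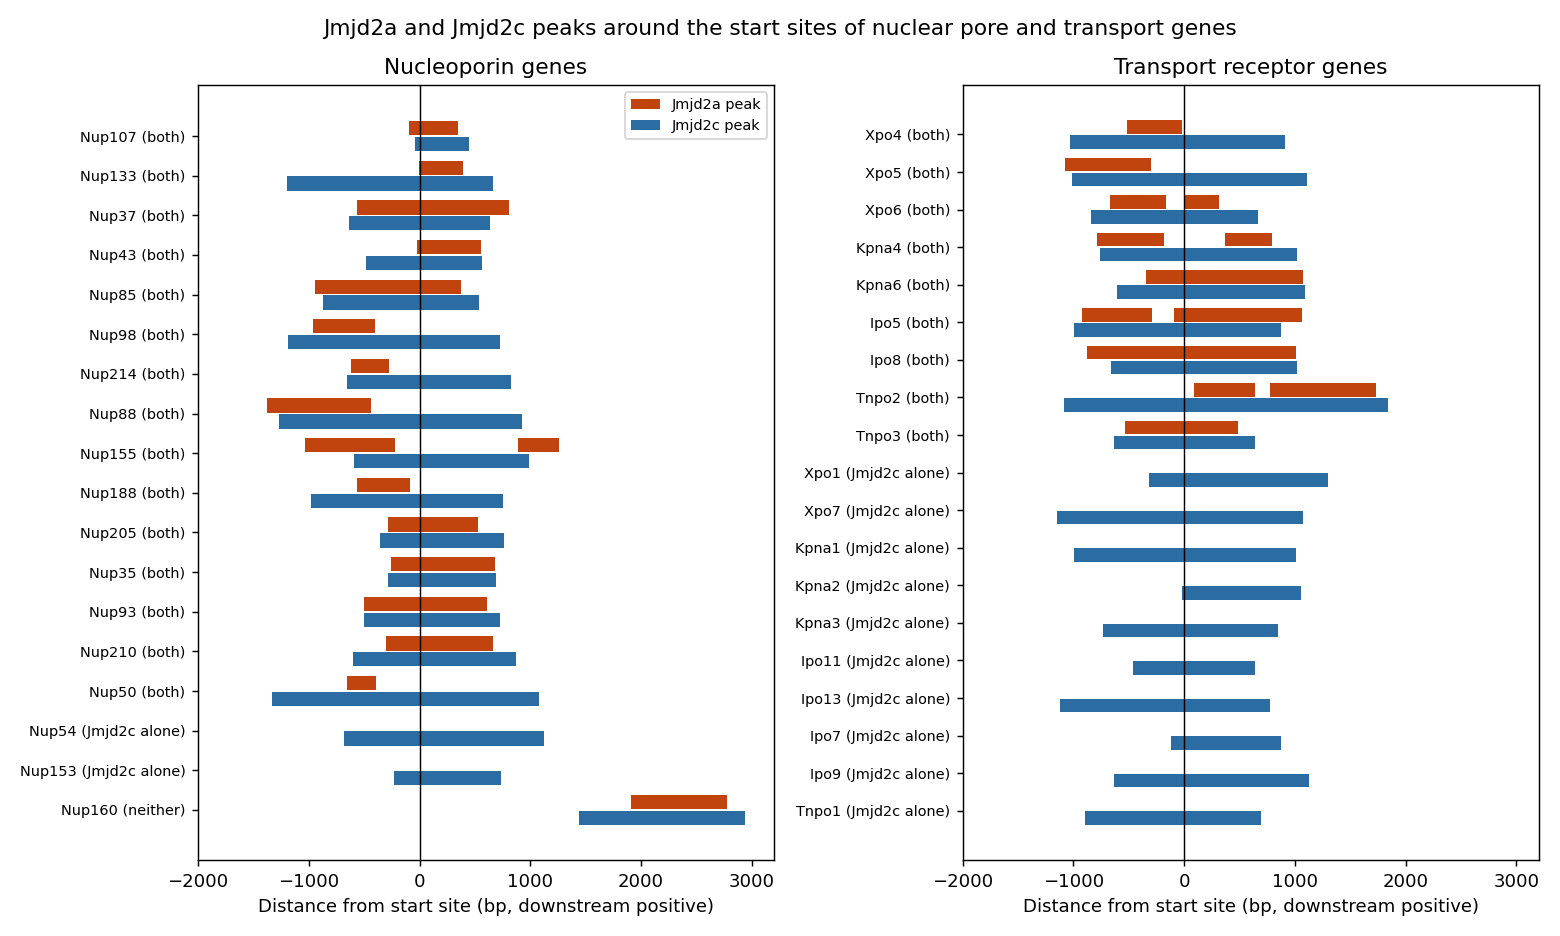
Peaks of Jmjd2a and Jmjd2c around the start sites of 18 nucleoporin genes and 19 transport receptor genes (x axis, distance from the start site in bp, downstream positive; 1 row per gene, with its occupancy in brackets). Each bar runs from the first to the last base of a peak, and genes with several start sites are drawn from 1 of them (Tnpo2 from its first); every occupied gene has a blue Jmjd2c bar across 0, while the orange Jmjd2a bars cross it at some genes and stop short of it at others.

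Among the transport receptors, importins alpha bind the classical nuclear localisation signal and link their cargo to importin beta. Of their 6 genes, Kpna4 and Kpna6 had both proteins, Kpna1, Kpna2 and Kpna3 had Jmjd2c alone and Kpna7 had neither. Kpna4 had a Jmjd2a peak of 432 bp at chr3:69126295-69126726, from +366 to +797 bp, and another of 605 bp at chr3:69127277-69127881, from -789 to -185 bp. Its Jmjd2c peak spanned 1778 bp at chr3:69126074-69127851, from -759 to +1018 bp. The Kpna6 gene had a Jmjd2a peak of 1423 bp at chr4:129671693-129673115, from -348 to +1074 bp, and a Jmjd2c peak of 1705 bp at chr4:129671672-129673376, from -609 to +1095 bp. The Jmjd2a peaks of Kpna4 left the start site free, while that of Kpna6 covered it and lay wholly inside the Jmjd2c peak. Kpna1 carried a Jmjd2c peak of 2006 bp at chr16:35982371-35984376, from -992 to +1013 bp. At Kpna2, the Jmjd2c peak spanned 1074 bp at chr11:106998472-106999545, from -20 to +1053 bp. The Kpna3 gene had a Jmjd2c peak of 1580 bp at chr14:61439097-61440676, from -729 to +850 bp. The Jmjd2c peak of Kpna2 lay almost wholly downstream of the start, and those of Kpna1 and Kpna3 to both sides of it. Kpna7 lay 42985 bp from the nearest Jmjd2a peak and 43072 bp from the nearest Jmjd2c peak.

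The importin beta family, whose members bind cargo directly, had the lowest share with Jmjd2a of the classes with over 3 genes, at 2 of 8. The exact 95% interval of this share (3.2% to 65.1%) includes the 32.3% of protein-coding genes, so it cannot be told from the background. It also overlaps the interval of the importins alpha, at 2 of 6 (4.3% to 77.7%), and the order of these classes was not tested. Ipo5 and Ipo8 had both proteins, with wide Jmjd2a occupancy. Ipo5 had a Jmjd2a peak of 629 bp at chr14:120910271-120910899, from -923 to -295 bp, and another of 1162 bp at chr14:120911099-120912260, from -95 to +1066 bp. Its Jmjd2c peak spanned 1868 bp at chr14:120910202-120912069, from -992 to +875 bp. At Ipo8, the Jmjd2a peak spanned 1887 bp at chr6:148830455-148832341, from -874 to +1012 bp, and the Jmjd2c peak 1675 bp at chr6:148830452-148832126, from -659 to +1015 bp. The Jmjd2a peak of Ipo8 was the widest of the group and exceeded the Jmjd2c peak, being 113% of its width. Ipo7, Ipo9, Ipo11 and Ipo13 had Jmjd2c alone. The Ipo7 gene had a Jmjd2c peak of 997 bp at chr7:110018305-110019301, from -120 to +876 bp. Ipo9 carried a Jmjd2c peak of 1759 bp at chr1:135429368-135431126, from -635 to +1123 bp. Ipo13, which works in both directions of transport, had the widest of these. At Ipo11, the Jmjd2c peak spanned 1102 bp at chr13:106936275-106937376, from -461 to +640 bp. The Ipo13 gene had a Jmjd2c peak of 1897 bp at chr4:117914227-117916123, from -1124 to +772 bp. Kpnb1, which encodes importin beta itself, had neither protein, with the nearest Jmjd2a peak 36582 bp and the nearest Jmjd2c peak 36091 bp away. Ipo4 also had neither, with distances of 7357 bp and 6987 bp.

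Transportins carry RNA-binding proteins, among them splicing factors brought in by Tnpo3. Tnpo2 and Tnpo3 had both proteins and Tnpo1 had Jmjd2c alone. Tnpo2 had a Jmjd2a peak of 547 bp at chr8:85037005-85037551, from +90 to +636 bp, and another of 959 bp at chr8:85037687-85038645, from +772 to +1730 bp. Its Jmjd2c peak spanned 2922 bp at chr8:85035830-85038751, from -1085 to +1836 bp. At Tnpo3, the Jmjd2a peak spanned 1015 bp at chr6:29609124-29610138, from -531 to +483 bp, and the Jmjd2c peak 1274 bp at chr6:29608964-29610237, from -630 to +643 bp. The files name a further start of Tnpo2, at position 85037168 of chromosome 8, and the first Jmjd2a peak covered that start. The Jmjd2c peak of Tnpo2 was the widest at any gene of the group. The Tnpo1 gene had a Jmjd2c peak of 1586 bp at chr13:98925691-98927276, from -892 to +693 bp. Tnpo1 was also the gene farthest from Jmjd2a among those with Jmjd2c alone, at 336958 bp.

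All 5 exportin genes had Jmjd2c, and Xpo4, Xpo5 and Xpo6 had Jmjd2a as well. Xpo4 carried a Jmjd2a peak of 495 bp at chr14:57664978-57665472, from -516 to -22 bp, and a Jmjd2c peak of 1937 bp at chr14:57664049-57665985, from -1029 to +907 bp. At Xpo5, the Jmjd2a peak spanned 779 bp at chr17:46201777-46202555, from -1078 to -300 bp, and the Jmjd2c peak 2123 bp at chr17:46201840-46203962, from -1015 to +1107 bp. Xpo5 exports precursors of microRNAs and Xpo6 exports actin. Xpo6 had a Jmjd2a peak of 312 bp at chr7:126200090-126200401, from +7 to +318 bp, and another of 502 bp at chr7:126200575-126201076, from -668 to -167 bp. Its Jmjd2c peak spanned 1514 bp at chr7:126199738-126201251, from -843 to +670 bp. None of these Jmjd2a peaks covered the start site, although those of Xpo4 and Xpo6 came within 22 bp and 7 bp of it. Xpo1 carried a Jmjd2c peak of 1617 bp at chr11:23255720-23257336, from -321 to +1295 bp. At Xpo7, the Jmjd2c peak spanned 2223 bp at chr14:70765552-70767774, from -1146 to +1076 bp. Xpo1, the general exportin for proteins with a leucine-rich export signal, and Xpo7 had Jmjd2c alone. A Jmjd2a peak of 329 bp, which the files list under an exon and the 3′ UTR of Xpo7, lay 107102 bp downstream of its start, and the nearest start named for it is that of Npm2.

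At the 12 genes with Jmjd2c alone, the nearest Jmjd2a peak lay 10050 bp to 336958 bp from the start, with a median of 56369 bp, so none was just outside the distance used. Their Jmjd2c peaks had a median width of 1601.5 bp (964 to 2223 bp, n = 12) against 1628.5 bp (486 to 2922 bp, n = 24) at genes with both proteins. The medians of the Jmjd2c widths thus differed little next to their ranges. Width is not a measure of signal.

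The 29 Jmjd2a peaks at the group's start sites had a median width of 629 bp (255 to 1887 bp), against 761 bp for all 6908 Jmjd2a peaks near a start site. The 36 Jmjd2c peaks had a median of 1601.5 bp (486 to 2922 bp), against 1366 bp for all 9053. All 29 Jmjd2a peaks shared 1 bp or more with a Jmjd2c peak (100%, 88.1% to 100%), against 86.9% of all Jmjd2a peaks near start sites, and 19 of them lay wholly inside one. The 24 genes with these peaks all had Jmjd2c near the start as well, whereas the 86.9% includes peaks at genes without Jmjd2c. The overlap thus largely restates that both proteins were called. The interval takes the peaks as independent, though 5 genes had 2 each. Of the 36 Jmjd2c peaks, 24 overlapped a Jmjd2a peak (66.7%, 49.0% to 81.4%), against 61.6% of all. The median Jmjd2c width was thus higher than at all start sites. The order of the Jmjd2a medians turned with the peaks taken, by 2 comparisons with all genes added after the data were seen. With the widest peak of each gene, the median was 813.5 bp (n = 24), against 804 bp over the 7186 curated genes with Jmjd2a. With peaks that cover the start, it was 987.5 bp (n = 14), against 913 bp for all 4606.

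Jmjd2a covered the start site at 14 of the 24 genes with both proteins (58.3%), against 69.0% of all 6432 such genes, and Jmjd2c covered it at 24 of 24, against 6111 of 6432. The remaining 10 genes split into 7 with Jmjd2a upstream only (Nup188, Nup214, Nup50, Nup88, Nup98, Xpo4 and Xpo5) and 3 with Jmjd2a on both sides (Kpna4, Nup155 and Xpo6). More than 1 Jmjd2a peak was called at 5 of 24 genes (20.8%; Ipo5, Kpna4, Nup155, Tnpo2 and Xpo6), against 10.8% of the 6432. Where Jmjd2a covered the start, its summed width was a median of 87.1% of that of Jmjd2c (21.0% to 113%), and where it lay upstream only, 27.7% (10.6% to 42.5%). The upstream peaks had a median of 495 bp (255 to 934 bp) under Jmjd2c peaks of 1484 to 2411 bp. Genes with Jmjd2a upstream only thus had narrow Jmjd2a peaks beside wide Jmjd2c peaks, and the ranges of the width ratio overlapped because of Nup133. The widths overlapped too, since genes with Jmjd2a across the start had 391 to 1887 bp of Jmjd2a and 486 to 2922 bp of Jmjd2c. A wider peak covers a start more readily, so the split by placement partly sets this difference. Over all curated genes, Jmjd2a peaks across the start had a median of 913 bp, against 761 bp for every peak.

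**Figure D3:**
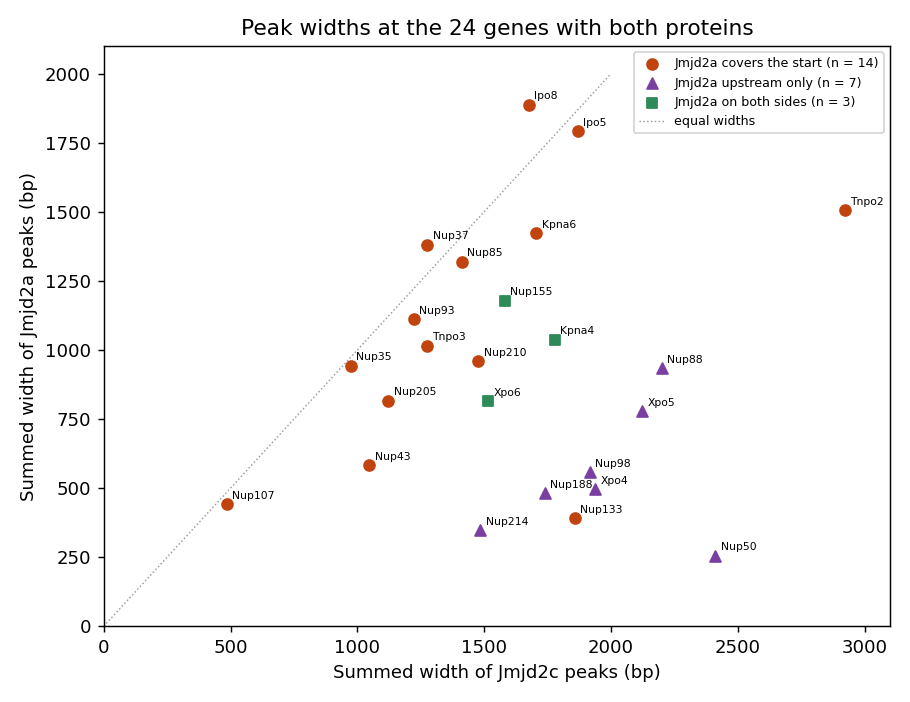
Summed width of Jmjd2a peaks (y axis, bp) against summed width of Jmjd2c peaks (x axis, bp) at the 24 genes with both proteins; each point is a gene and its shape gives the placement of Jmjd2a. The 7 genes with Jmjd2a upstream only lie far under the dotted line of equal widths, and Ipo8 and Nup37 lie above it.

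The authors' windows around start sites called bound by both include 28 at these 24 genes. Jmjd2a covered 64.3% of the 28 starts at 450 bp upstream, against 45.4% of all 6940, and 64.3% at 200 bp downstream, against 77.5%, where the profile of all windows was highest. At the start itself it covered 57.1%, against 67.2%. Jmjd2c covered 100% of the 28 starts at the start site, while over all windows it was highest at 150 bp downstream with 95.8%, and at 500 bp upstream it covered 82.1%, against 64.5%. The profile of Jmjd2a in the group therefore had 2 shoulders of equal height with a dip between them. It lay below that of all windows at the start and above it at 450 bp upstream. At 1000 bp downstream it was higher as well, with 21.4% against 10.3%. The centres of the 29 Jmjd2a peaks had a median of 69 bp, and 16 of them lay downstream of the start. Nup35, Nup37, Nup98 and Tnpo2 each enter the profile with 2 windows.

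**Figure D4:**
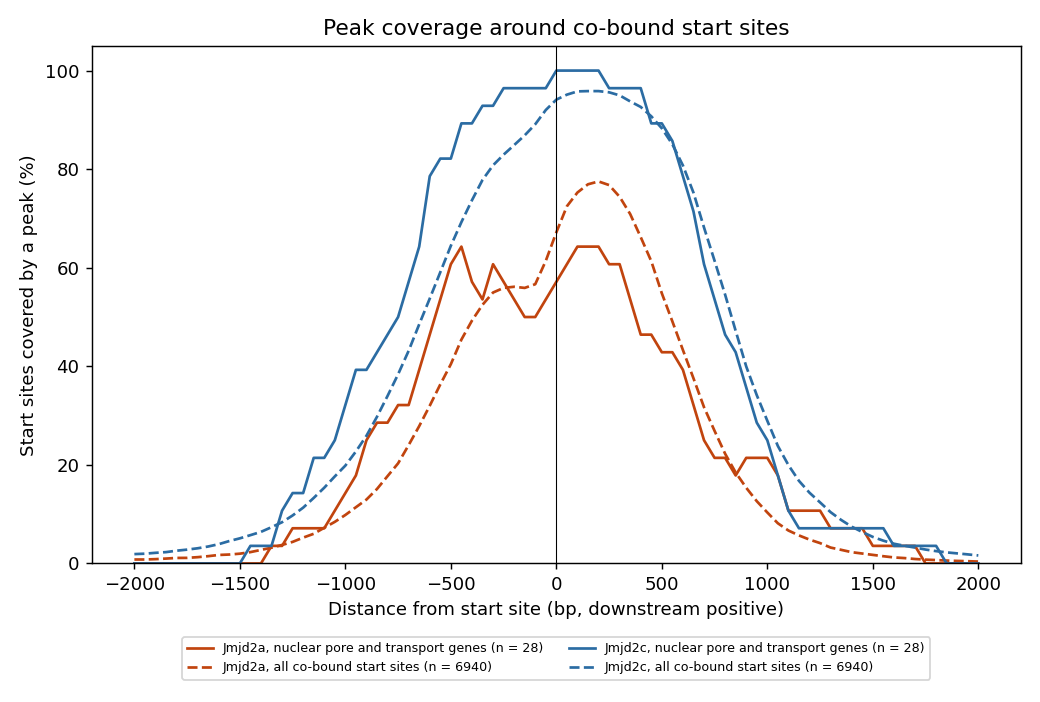
Share of start sites covered by a peak (y axis, %) at each distance from the start (x axis, bp, downstream positive, steps of 50 bp), for Jmjd2a and Jmjd2c in 28 windows of nuclear pore and transport genes (solid) and in all 6940 windows bound by both (dashed). The solid Jmjd2a line reaches 64.3% both 450 bp upstream and 200 bp downstream of the start, where the dashed line stands at 45.4% and 77.5%.

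Several of the upstream Jmjd2a peaks lay over the body of a neighbouring gene that starts on the other strand. Of the 7 genes with Jmjd2a upstream only, 4 had a protein-coding neighbour of this kind within 1000 bp. Of all 6432 genes with both proteins, 1605 had such a start upstream, coding or not. The share among all genes with Jmjd2a upstream only was not counted, so whether 4 of 7 is unusual is not known. The starts of Nup188 and Dolk lie 79 bp apart, and the Jmjd2a peak ran from 7 to 487 bp downstream of the Dolk start. Those of Nup88 and Rpain lie 227 bp apart, with the peak from 215 to 1148 bp downstream of the Rpain start. Those of Nup98 and Pgap2 lie 169 bp apart, with the peak from 234 to 791 bp downstream of the Pgap2 start. Those of Xpo5 and Polh lie 230 bp apart, with the peak from 70 to 848 bp downstream of the Polh start. Polh encodes a DNA polymerase that copies past damaged bases, and Dolk a kinase of dolichol. In each of these pairs the Jmjd2a peak thus lay downstream of the neighbour's start, and it could as well be counted as that gene's peak. When each peak was given to the nearest named gene alone, a setting chosen after the data were seen, Jmjd2a was left at 20 of 43 genes (46.5%), against 25.8% of all curated genes.

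The peak at Nup62 had the same layout, from 57 to 521 bp downstream of the start of Atf5, which lies 430 bp from that of Nup62. The opposite case was Nup37, whose start lies 51 bp from that of Parpbp, where the Jmjd2a peak covered both starts. At Ipo8 the peak also covered the start of the non-coding gene 2610017A05Rik, 153 bp away. Nup210 has the non-coding Gm30364 starting 395 bp away, and Jmjd2a covered the Nup210 start alone. Counting such starts on the other strand within 1000 bp upstream, Jmjd2a covered the gene's own start at 3 of 7 genes of the group that have one (42.9%) and at 11 of 17 that have none (64.7%). Over all genes with both proteins, these shares were 62.6% of 1605 and 71.1% of 4827.

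The DNA between the paired starts is shown for 3 pairs, chosen after their values were seen, to set the pair spanned by Jmjd2a beside pairs where Jmjd2a lay on the neighbour's side. Each is printed 5′ to 3′ on the strand of the nucleoporin gene, from the base after the neighbour's start to the base before its own, with the same motifs in capitals. The Nup37 stretch is at chr10:88146942-88146991 on the plus strand, that of Nup88 at chr11:70969974-70970199 and that of Nup98 at chr7:102210167-102210334, both on the minus strand.
Nup37 and Parpbp: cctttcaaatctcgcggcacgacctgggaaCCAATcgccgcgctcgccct
Nup88 and Rpain: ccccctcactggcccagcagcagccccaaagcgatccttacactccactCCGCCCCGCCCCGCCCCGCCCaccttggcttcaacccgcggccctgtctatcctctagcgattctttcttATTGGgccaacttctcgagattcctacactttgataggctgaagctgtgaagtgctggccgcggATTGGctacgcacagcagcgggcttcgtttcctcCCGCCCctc
Nup98 and Pgap2: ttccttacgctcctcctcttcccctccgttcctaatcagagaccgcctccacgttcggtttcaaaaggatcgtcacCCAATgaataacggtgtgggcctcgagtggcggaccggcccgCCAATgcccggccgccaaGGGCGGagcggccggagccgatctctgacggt

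All 3 stretches held CCAAT, on either strand, and those of Nup88 and Nup98 also held GGGCGG. The Nup37 stretch had 64.0% G and C, the Nup88 stretch 61.9% and the Nup98 stretch 63.1%. The Nup37 stretch, covered by the Jmjd2a peak, held 7 CpG pairs in 50 bases, the Nup88 stretch 15 in 226 bases and the Nup98 stretch 18 in 168 bases.

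Other genes of the same machinery, which do not carry the names used here, were also occupied at higher shares than all protein-coding genes. Of 31 such genes, 20 had Jmjd2a (64.5%, 45.4% to 80.8%), 28 had Jmjd2c (90.3%, 74.2% to 98.0%) and 18 had both (58.1%, 39.1% to 75.5%). Among 14 further nucleoporins and pore-associated factors, 12 had Jmjd2a, 12 had Jmjd2c and 10 had both. Among 17 further transport factors, 8 had Jmjd2a, 16 had Jmjd2c and 8 had both. Here too Jmjd2a lay at a smaller share of the transport factors (47.1%) than of the nucleoporins and pore-associated factors (85.7%), and the difference was not tested. The interval at the transport factors (23.0% to 72.2%) includes the 32.3% of protein-coding genes. The messenger RNA export factors Gle1, Ddx19a and Ddx19b, all with Jmjd2a, were counted with the nucleoporins. Counting them with the transport factors would narrow the difference.

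Genes with both proteins and the widest Jmjd2a peaks were Rangap1 (1402 bp), which activates the GTPase of Ran in the cytoplasm, Nupl2 (1316 bp), Seh1l (1283 bp), a Y complex subunit, Pom121 (1050 bp), a membrane nucleoporin, Ddx19b (850 bp), a helicase of messenger RNA export, and Nupl1 (771 bp), a channel nucleoporin. Jmjd2c alone lay at Ndc1, Ranbp2, Ran, Rcc1, Ranbp1, Ranbp3, Nutf2, Snupn, Nxf1 and Mcm3ap. Ran itself and its exchange factor Rcc1 are thus in the same state as Xpo1. Jmjd2a without Jmjd2c lay at Gle1 and Ddx19a, against 3.35% of protein-coding genes, and so few genes cannot be told from the background. Both are factors of messenger RNA export, but so is Ddx19b, which had both proteins. Nxt2 had neither.

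Away from the start sites, few peaks belonged to these genes. Ipo5 was the nearest start for a Jmjd2a peak 147987 bp upstream, Nup153 for a Jmjd2c peak 7851 bp upstream and Tnpo1 for a Jmjd2c peak 18425 bp upstream. A pair of overlapping peaks about the start of A630066F11Rik lay 4267 bp (Jmjd2a) and 3308 bp (Jmjd2c) upstream of the start of Nup43. None of these peaks entered the counts above.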

How the data were processed

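The submitters' processing notes name the mm10 build and the tools bedtools 2.25.0, Bowtie 0.12.7 and SAMtools; for the peak caller, its threshold and its control the sources used here give nothing. Per the file headers, the authors deposited positions and distances in bp, with no count, score or p-value. Positions were read as starting from 0 and are printed counting from 1. Start sites were the 12884 named in the files, with 16875 of 17007 accessions matched to the RefSeq table of GRCm38.p6; Nup62, Nup62cl, Ipo4, Kpna7 and Kpnb1 took theirs from the RefSeq promoter table for distances only. In rows that join several genes, each position went to the gene that other tables give it to. A pattern match in 2 non-coding genes was left out. A gene was occupied when a peak lay within 1000 bp of a start, and peaks overlapped at 1 bp or more. Backgrounds were 26219 curated and 21031 protein-coding genes.

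No test was run, since there is 1 peak list per protein and no value per library; shares carry exact (Clopper-Pearson) 95% binomial intervals, which cover counting error only, and how many reads stand behind a peak is unknown. The genes and lists were chosen with earlier results of these data known. Every gene of the group is named with its state; of the 31 further genes, those with 1 protein or none and the 6 with both and the widest Jmjd2a peaks are named; promoters follow the extremes of width and the alphabet. Alternatives were distances of 500 and 5000 bp, the wider 50% of each peak list, other start sites, older symbols and stricter overlaps. The call within 1000 bp was tested on simulated peaks placed at known distances from 2000 start sites. Python 3.11.15, numpy 2.4.6, pandas 2.3.3, scipy 1.17.1 and matplotlib 3.10.9 were used.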

Additional observations from a re-analysis of the deposited data

How the results depend on the processing

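Of 31 alternative values, 29 stayed within 1.5 times the main count or within the spread of the widths and offsets. The other 2 came from keeping the wider 50% of each peak list, which left Jmjd2a at 14 of 43 genes (32.6%, against 16.5% of all curated genes) and both proteins at 9 (20.9%, against 10.0%); this setting drops peaks by construction. Jmjd2c then lay at 25 genes (58.1%, against 22.9%). Several of the 29 values could not have moved by construction. The background of protein-coding genes leaves the counts of the group's genes as they are. The median Jmjd2c width stayed at 1601.5 bp because each occupied gene had 1 Jmjd2c peak, which covered the start. Counting peaks within 1000 bp of each other as overlapping cannot lower a count. With older symbols, which add Cse1l, Nupl1, Nupl2, Il4i1b, Sod1 and Zfp36, the last 3 not being transport genes, the counts of 49 genes were 28 for Jmjd2a, 40 for Jmjd2c and 28 for both (57.1%, 81.6% and 57.1%, against 27.4%, 37.9% and 24.5%). The median Jmjd2a width was 813.5 bp over the widest peak of each gene and 987.5 bp over peaks that cover the start, against 629 bp over every peak; the first takes fewer of the narrow peaks by construction. Requiring an overlap of 50% of the shorter peak left 27 of 29 Jmjd2a peaks called overlapping, against 29 in the main setting. For Jmjd2c it left 23 of 36 peaks, against 24. No paired analysis was possible because the peak lists hold no value per library. Depth and calling thresholds, which set the number and width of peaks, are unknown, so a missing peak does not show that a protein was absent.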
